A study of Mus musculus with 17 samples.

Results

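The genes described here are 44 genes of microglia and of innate immunity, chosen by name: markers of microglia, complement components and receptors for phagocytosis, innate sensors with their signalling proteins, and cytokines. Of these, 41 had at least 1 probe set whose platform annotation gives a single gene symbol, out of 18193 such genes on the array, and each was read through its brightest probe set, judged by the average of all 17 arrays. C4b shared its probe set with C4a in the annotation, and C3 and Nfkb1 had no probe set with a single symbol in the table used here, so these 3 genes were not analysed here. RNA came from the dissected hippocampus of adult male C57BL/6J mice (C57/BL6 in the sample labels), 2 months old by those labels, housed singly and handled daily for 6 days beforehand. One group of 8 animals was kept awake in the home cage for 5 h by gentle handling, and the other group of 9 animals was left undisturbed in the home cage over the same hours. Dissections followed at once and alternated between the groups. Each animal had its own Affymetrix mouse expression array, and values are log2 signals. No group was handled for those hours and allowed to sleep, so loss of sleep and handling cannot be told apart.

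Microglia are the resident macrophages of the brain. They depend on signalling through the receptor Csf1r and on the transcription factors PU.1 and Irf8, and their processes survey the tissue, guided in part by nucleotide receptors such as P2ry12. In the hippocampus they clear dying cells and, through complement and bridging ligands, material from synapses. Innate sensors such as the Toll-like receptors act through Myd88 and NF-kB to switch on cytokine genes, whose transcripts are scarce in resting tissue.

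After sleep deprivation 1 of the 41 genes rose and 1 fell. Mertk, a receptor tyrosine kinase with which microglia and astrocytes engulf apoptotic cells and synaptic material, was 1.21-fold higher. Gpr34, a microglial receptor for lysophosphatidylserine, was 1.22-fold lower. The other 39 did not pass an adjusted p of 0.05 in limma. Called genes made up 4.88% of the 41, against 3.97% of all genes tested (1.25% higher and 2.73% lower), so the share of called genes was near that of the array as a whole. At an unadjusted p under 0.05 there were 12 of the 41, against 3377 of all 18193 genes (18.6%). Above background, on the level given below, there were 10 of 35 members, against 2755 of 12722 genes. The share was larger among the members both times, and this was not tested. The median log2 difference of the 41 genes was -0.024, against 0.0016 over all genes, and the median absolute difference was 0.061 against 0.059. Among genes above the background level given below, the median difference was -0.029 for 35 members and -0.019 for all 12722 genes. In none of the 41 genes were the 2 groups of arrays free of overlap, which was the case for 0.731% of all genes.

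**Figure D1:**
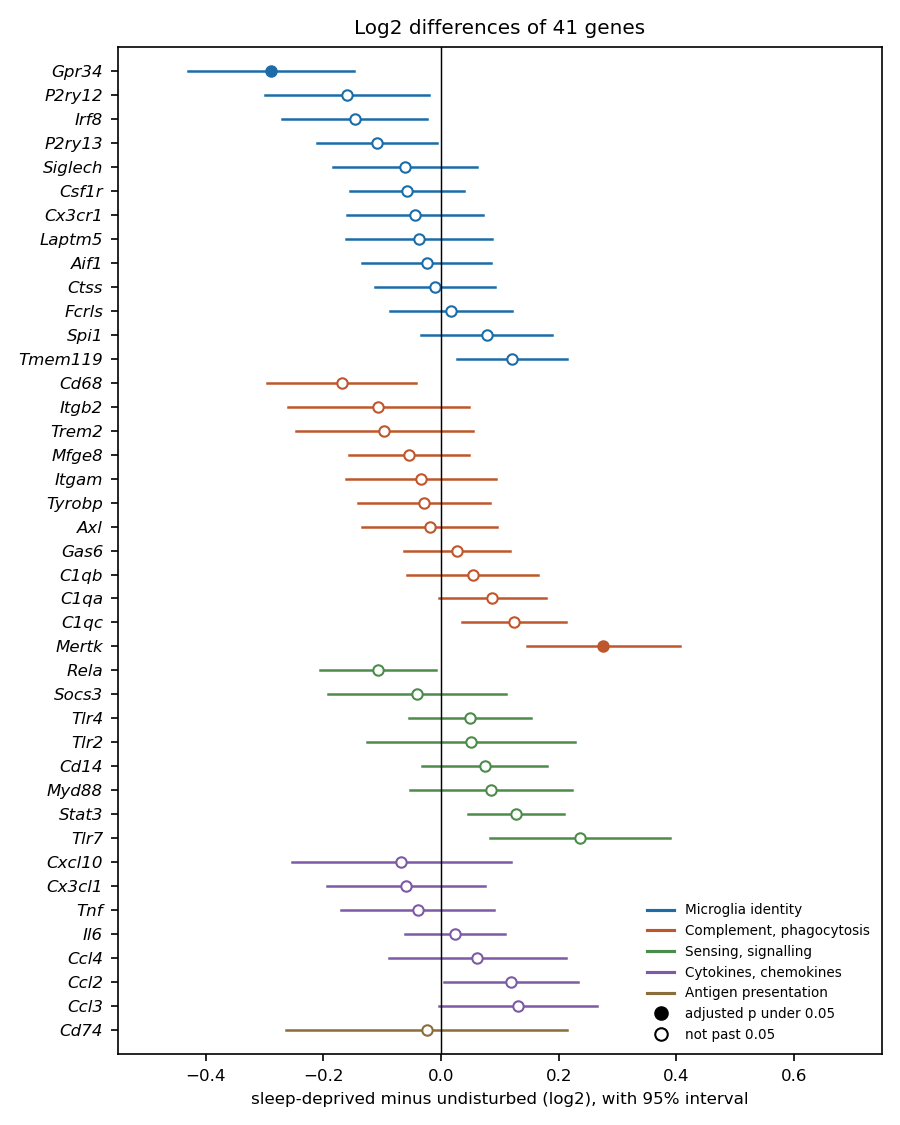
Log2 differences, sleep-deprived minus undisturbed, of the 41 measured genes (horizontal axis) by role. Points are limma estimates with 95% intervals, and filled points passed an adjusted p of 0.05. Gpr34 at -0.29 and Mertk at 0.28 are the filled points, and the other 39 are open.

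In RNA from a whole tissue, fewer cells of a type and less RNA per cell cannot be told apart, and this applies to every microglial gene below. The labelled tissue and cell type could be checked only through their markers. All 13 microglia identity genes lay above a background level of 5.66, the 95 percentile of the mean signals of 38 olfactory receptor genes, a family taken here as not expressed in hippocampus. Of the 41 genes 6 lay at or below that level: Tlr2, Tlr7, Il6, Ccl2, Ccl3 and Cxcl10. Cxcl10 at 5.54 lay just below it and Tlr4 at 5.84 just above it. A difference of a gene near background is compressed on such arrays. The array of sleep-deprived replicate 5 stood apart in RNA quality: its 3′ minus 5′ control signal was 0.42 on the log2 scale, against 0.20 to 0.30 on the 16 other arrays. Without that array Gpr34 was at -0.30 (limma adjusted p = 0.024) and Mertk at 0.29 (limma adjusted p = 0.017).

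**Figure D2:**
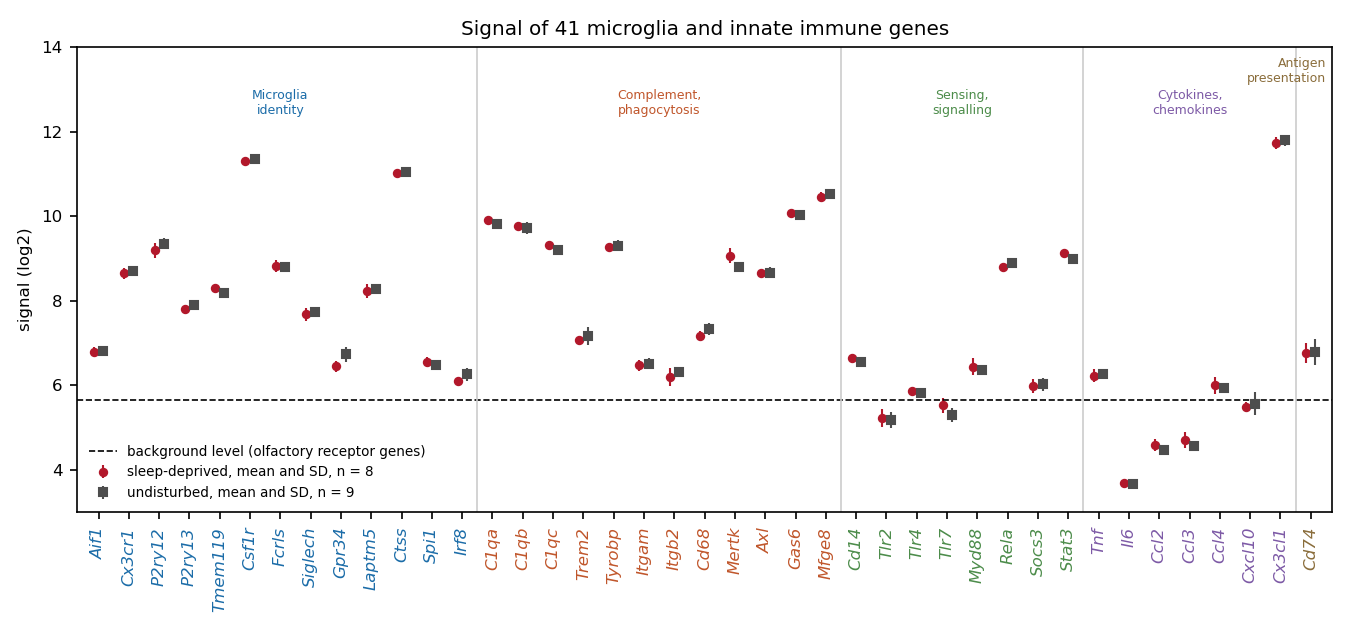
Signal (log2, vertical axis) of the 41 genes by role, sleep-deprived animals (red circles, n = 8) left of undisturbed animals (grey squares, n = 9), as means with SD. The dashed line is the background level of 5.66, at or below which 6 genes lay; heights of different genes are not comparable, since each rests on its own probes.

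Microglia identity genes were the first group of interest. Of 13 genes 1 fell, none rose and 12 did not pass. Of the 13 differences 10 were negative, and their median was -0.044. Over all genes above background 7447 of 12722 differences were negative, with a median of -0.019. Gpr34 ranged from 6.28 to 6.66 with a median of 6.42 in sleep-deprived animals, against 6.41 to 6.94 with a median of 6.78 in undisturbed animals. All 8 sleep-deprived values lay below the undisturbed mean and 4 lay below the lowest undisturbed value, while 6 undisturbed animals were above the highest sleep-deprived value. Gpr34 averaged 6.45 ± 0.12 (SD, n = 8) in sleep-deprived and 6.74 ± 0.17 (SD, n = 9) in undisturbed animals, a log2 difference of -0.29 (SE 0.068, limma adjusted p = 0.018). In an exact rank-sum test in place of limma Gpr34 missed the threshold (adjusted p = 0.061).

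P2ry12, the ADP receptor that steers microglial processes, ranged from 8.91 to 9.46 with a median of 9.22 in sleep-deprived animals, against 9.16 to 9.50 with a median of 9.41 in undisturbed animals. In 3 sleep-deprived animals it was below every undisturbed value, and the groups otherwise overlapped. Its log2 difference was -0.16 (SE 0.067, limma adjusted p = 0.20). Irf8, a transcription factor gene that microglia need, ranged from 5.98 to 6.21 with a median of 6.16 in sleep-deprived animals, against 6.06 to 6.53 with a median of 6.30 in undisturbed animals. All 8 sleep-deprived values were below the undisturbed mean, yet the difference of -0.15 did not pass (SE 0.059, limma adjusted p = 0.18). The dimmer probe set of Irf8, near background, was at 0.016 (limma adjusted p over all probe sets = 0.92).

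P2ry13, a second ADP receptor gene, was at -0.11 (limma adjusted p = 0.23) and Tmem119, a surface protein gene used to tell microglia from other macrophages, was at 0.12 (limma adjusted p = 0.14). Tmem119 ranged from 8.18 to 8.40 with a median of 8.31 in sleep-deprived animals, against 8.05 to 8.30 with a median of 8.18 in undisturbed animals. Thus 2 genes that mark the same cells had differences of opposite sign, and neither passed. None of the remaining identity genes passed either. Csf1r, the growth factor receptor on which the cells depend, was at -0.058 with a 95% interval from -0.16 to 0.039, and its 2 dimmer probe sets were at -0.012 and -0.021. Ctss, a lysosomal protease gene, was at -0.010, Aif1, which encodes the microglial marker Iba1, at -0.024 and Fcrls, an Fc receptor-like gene, at 0.017. Cx3cr1, the receptor for fractalkine, was at -0.044, and its dimmer probe set, also above background, at -0.16 (adjusted p over all probe sets = 0.38). The lectin gene Siglech was at -0.061, the lysosomal membrane gene Laptm5 at -0.038 and Spi1, which encodes PU.1, at 0.077. For the 13 genes the 95% interval reached at most 0.14 to either side of the estimate.

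**Figure D3:**
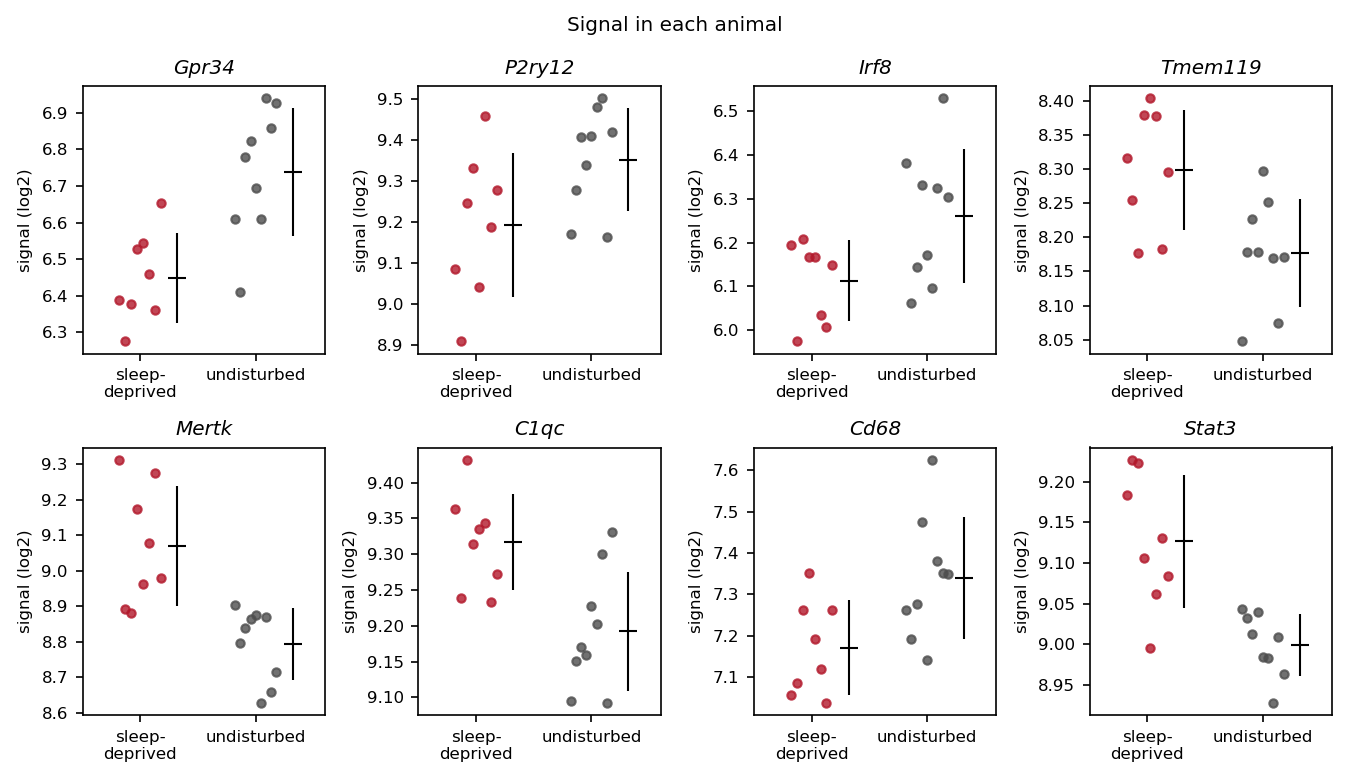
Signal (log2, vertical axes with their own ranges) of 8 genes in each animal, sleep-deprived left of undisturbed, with the mean and SD beside the points. In Gpr34 all 8 sleep-deprived animals lie below the undisturbed mean, and in Mertk 6 of 8 lie above the highest undisturbed animal.

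Genes of complement and phagocytosis came next. Of 12 measured genes 1 rose, none fell and 11 did not pass, with a median difference of -0.024. Mertk ranged from 8.88 to 9.31 with a median of 9.03 in sleep-deprived animals, against 8.63 to 8.90 with a median of 8.84 in undisturbed animals. The 8 sleep-deprived values all lay above the undisturbed mean, 6 of them above the highest undisturbed value, and the other 2 lay only just below it. Mertk averaged 9.07 ± 0.17 (SD, n = 8) in sleep-deprived and 8.79 ± 0.10 (SD, n = 9) in undisturbed animals, a log2 difference of 0.28 (SE 0.063, limma adjusted p = 0.015). It passed in an exact rank-sum test as well (adjusted p = 0.020).

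Mertk belongs to the TAM receptors with Axl and Tyro3, which bind phosphatidylserine on dying cells through the bridging proteins Gas6 and Pros1. Axl was at -0.019 (95% interval -0.13 to 0.095), Gas6 at 0.027 (95% interval -0.063 to 0.12) and Mfge8, a bridging protein read by integrins, at -0.054 (95% interval -0.16 to 0.048). None of these 3 passed. Tyro3 at -0.11 (limma adjusted p = 0.44) and Pros1 at -0.088 (limma adjusted p = 0.47), from the wider lists, did not pass either. Cd68, a lysosomal glycoprotein gene of phagocytes, ranged from 7.04 to 7.35 with a median of 7.16 in sleep-deprived animals, against 7.14 to 7.63 with a median of 7.35 in undisturbed animals. In 4 sleep-deprived animals Cd68 was below all undisturbed values, and its difference of -0.17 did not pass (SE 0.061, limma adjusted p = 0.13).

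The 3 chains of C1q, the molecule that starts the classical complement pathway and tags synapses in development, are encoded by neighbouring genes. C1qc ranged from 9.23 to 9.43 with a median of 9.32 in sleep-deprived animals, against 9.09 to 9.33 with a median of 9.17 in undisturbed animals. In 7 undisturbed animals it was below the lowest sleep-deprived value, and the difference of 0.12 did not pass (SE 0.043, limma adjusted p = 0.11). C1qa was at 0.087 (limma adjusted p = 0.29) and C1qb at 0.054 (limma adjusted p = 0.63), and 2 dimmer probe sets of C1qb had the opposite sign, at -0.094 and -0.091. C1qc passed after cyclic loess between arrays (0.16, limma adjusted p = 0.044) and under none of the other 10 alternative settings that kept all arrays.

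The remaining receptors of this group did not pass. Trem2, a lipid receptor of microglia, was at -0.096, and Tyrobp, the adaptor through which it signals, at -0.029. The dimmer probe set of Trem2, near background, was at 0.046. Itgam and Itgb2, the 2 chains of complement receptor 3, which binds cleaved C3 on synapses, were at -0.034 and -0.11. The 95% interval of Itgb2 ran from -0.26 to 0.047.

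Of 8 genes of sensing and signalling none passed in limma, 3 had an unadjusted p under 0.05 and 2 lay near background. Stat3, the transcription factor downstream of interleukin-6 type receptors, ranged from 8.99 to 9.23 with a median of 9.12 in sleep-deprived animals, against 8.93 to 9.04 with a median of 9.01 in undisturbed animals. In 7 sleep-deprived animals Stat3 was above every undisturbed value. The difference was 0.13 (SE 0.039, limma adjusted p = 0.070), and it passed with 5 of 11 alternative settings (adjusted p = 0.022 to 0.046) and without sleep-deprived replicate 5 (limma adjusted p = 0.041). Its 3 dimmer probe sets lay at 0.057, 0.030 and 0.015.

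Tlr7, an endosomal sensor of single-stranded RNA, ranged from 5.28 to 5.80 with a median of 5.54 in sleep-deprived animals, against 5.07 to 5.59 with a median of 5.27 in undisturbed animals. Its difference of 0.24 did not pass (SE 0.074, limma adjusted p = 0.075), the gene lay near background, and its 2 dimmer probe sets were at -0.024 and 0.043. Rela, the p65 subunit gene of NF-kB, ranged from 8.61 to 8.92 with a median of 8.83 in sleep-deprived animals, against 8.78 to 9.00 with a median of 8.90 in undisturbed animals. Its difference was -0.11 (SE 0.048, limma adjusted p = 0.23). The lipopolysaccharide co-receptor gene Cd14 was at 0.074, the lipopolysaccharide receptor gene Tlr4 at 0.049, the lipoprotein receptor gene Tlr2 at 0.050 and the adaptor gene Myd88 at 0.085. Socs3, a feedback inhibitor that Stat3 induces, was at -0.041 (95% interval -0.19 to 0.11).

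None of the 7 cytokine and chemokine genes passed in limma, and 1 had an unadjusted p under 0.05. Il6, Ccl2, Ccl3 and Cxcl10 were near background. Ccl3, a chemokine of activated microglia, ranged from 4.39 to 5.08 with a median of 4.69 in sleep-deprived animals, against 4.42 to 4.70 with a median of 4.59 in undisturbed animals. In 4 sleep-deprived animals it was above all undisturbed values and in 1 below all of them, and its difference was 0.13 (limma adjusted p = 0.28). Ccl2, which attracts monocytes, ranged from 4.38 to 4.77 with a median of 4.60 in sleep-deprived animals, against 4.30 to 4.59 with a median of 4.47 in undisturbed animals. Its difference was 0.12 (limma adjusted p = 0.24).

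Cxcl10, an interferon-induced chemokine, ranged from 5.31 to 5.62 with a median of 5.53 in sleep-deprived animals, against 5.30 to 6.21 with a median of 5.46 in undisturbed animals. Its difference of -0.068 (limma adjusted p = 0.73) included 1 undisturbed animal that stood apart at 6.21, and without that animal it was 0.012 (limma adjusted p = 0.94). Tnf, a principal inflammatory cytokine, was at -0.040, Il6 at 0.024 and the chemokine gene Ccl4 at 0.061. Cx3cl1, which neurons make as the ligand of Cx3cr1, was at -0.060 (95% interval -0.19 to 0.074), so neither ligand nor receptor passed.

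Cd74, the invariant chain that accompanies MHC class II molecules in antigen-presenting cells, ranged from 6.36 to 7.08 with a median of 6.68 in sleep-deprived animals, against 6.43 to 7.31 with a median of 6.75 in undisturbed animals. The groups overlapped over most of their range (-0.025, 95% interval -0.26 to 0.21, limma adjusted p = 0.93). The SD between animals, 0.24 in sleep-deprived and 0.31 in undisturbed animals, was larger in both groups than that of any other of the 41 genes. Sleep-deprived replicates 3, 5 and 7, highest in Cd74 (7.08, 6.98 and 6.98), had the highest choroid plexus marker scores (1.77, 1.47 and 1.69). Undisturbed replicate 9, at 7.21, had a score of 1.05, but replicate 6, the highest at 7.31, had -0.52. Undisturbed replicate 5, at 6.93, had -0.31, and undisturbed replicate 4, with a score of 0.56, was only at 6.75. Whether choroid plexus in the dissection enters this spread, or the relations of Cd74 below, was not tested.

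How far animals that were high in 1 gene were high in another was described with signals centred on each group's mean, over the 17 arrays. The arrays share their normalization, and pairs share genes, so the median values below are descriptions with no test. Among the 78 pairs of identity genes the median Pearson r was 0.18, ranging from -0.58 to 0.64, and 54 pairs were positive. Over all 80918300 pairs of genes above background the median was 0.038. Fcrls had the highest median r with the other identity genes (0.43) and Laptm5 the lowest (-0.20). The signal of Laptm5 was lowest, at 7.87, on the array of sleep-deprived replicate 5, which stood apart in RNA quality. Pairs of identity genes thus mixed positive and negative r, and why r was low in many of them was not tested.

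**Figure D4:**
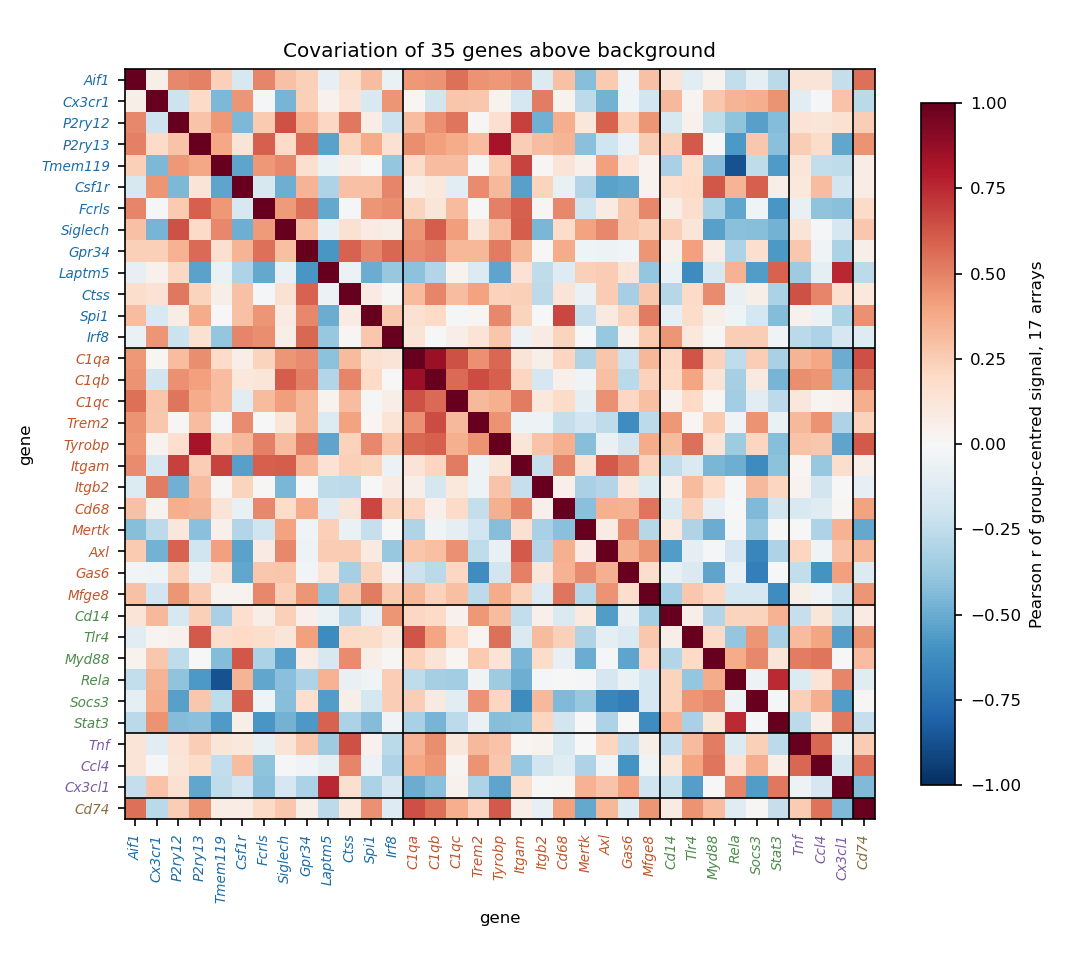
Pearson r between the group-centred signals of 35 genes above background over 17 arrays (colour, from -1 to 1), with genes ordered by role on both axes. C1qa and C1qb stand at 0.85, and identity genes mix positive and negative values around a median of 0.18.

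The 10 other genes above background with the highest r to the mean of the identity genes were Ndufb2 (0.89), Rpa3, Arl3, Ccdc157, 2610001J05Rik, Triap1, Ndufa13, Cdkn2aipnl, Trim13 and Atp6v1f (0.82). They were picked as the extremes of all genes above background over 17 arrays, and their r had no test. The identity genes, themselves part of that mean, ran from -0.32 (Laptm5) to 0.84 (Gpr34). Csf1r (0.15), Cx3cr1 (0.22) and Tmem119 (0.31) followed it weakly, and P2ry13 (0.71) and Fcrls (0.69) more closely. Ndufb2 and Ndufa13 encode subunits of respiratory complex I and Atp6v1f a subunit of the vacuolar proton pump. None of the 10 was on the wider lists of microglial and immune genes, and none differed between the groups (smallest limma adjusted p = 0.54).

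Gene pairs with a shared protein complex were tested as 6 relations. C1qa and C1qb varied together (r = 0.85, permutation p = 1e-05, the smallest the permutations can give, adjusted p = 3e-05; Spearman rho = 0.73, permutation p = 0.0014, adjusted p = 0.0021), and r was 0.73 without the 2 arrays farthest from the median of C1qa. Within groups r was 0.58 in sleep-deprived animals (n = 8, exact p = 0.13) and 0.92 in undisturbed animals (n = 9, exact p = 0.00056). C1qa and C1qc gave r = 0.64 (permutation p = 0.0057, adjusted p = 0.0068) and rho = 0.52 (permutation p = 0.035, adjusted p = 0.042), with r falling to 0.40 without 2 arrays. For this pair r was 0.62 in sleep-deprived (n = 8, exact p = 0.097) and 0.66 in undisturbed animals (n = 9, exact p = 0.054), so neither group alone passed 0.05. C1qb and C1qc gave r = 0.57 (permutation p = 0.017, adjusted p = 0.017; rho = 0.49, permutation p = 0.050, adjusted p = 0.050), with r = -0.028 in sleep-deprived animals (n = 8, exact p = 0.95) and 0.77 in undisturbed animals (n = 9, exact p = 0.016). That last relation did not hold within the sleep-deprived animals and fell to r = 0.31 without 2 arrays.

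Cd74 varied with the MHC class II chains that it accompanies. With H2-Aa r was 0.87 (permutation p = 1e-05, the smallest the permutations can give, adjusted p = 3e-05; rho = 0.81, permutation p = 0.00015, adjusted p = 0.00090), and 0.81 without 2 arrays. It was 0.94 in sleep-deprived animals (n = 8, exact p = 0.0014) and 0.84 in undisturbed animals (n = 9, exact p = 0.0065). With H2-Ab1, which lay near background, r was 0.79 (permutation p = 0.00022, adjusted p = 0.00044; rho = 0.78, permutation p = 0.00046, adjusted p = 0.0014), 0.67 without 2 arrays, 0.55 in sleep-deprived (n = 8, exact p = 0.16) and 0.90 in undisturbed animals (n = 9, exact p = 0.00057). With H2-Eb1 r was 0.72 (permutation p = 0.0011, adjusted p = 0.0016; rho = 0.74, permutation p = 0.0012, adjusted p = 0.0021), 0.62 without 2 arrays, 0.68 in sleep-deprived (n = 8, exact p = 0.060) and 0.74 in undisturbed animals (n = 9, exact p = 0.017). H2-Aa, H2-Ab1 and H2-Eb1 themselves were at -0.0044, -0.035 and -0.030 between the groups.

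**Figure D5:**
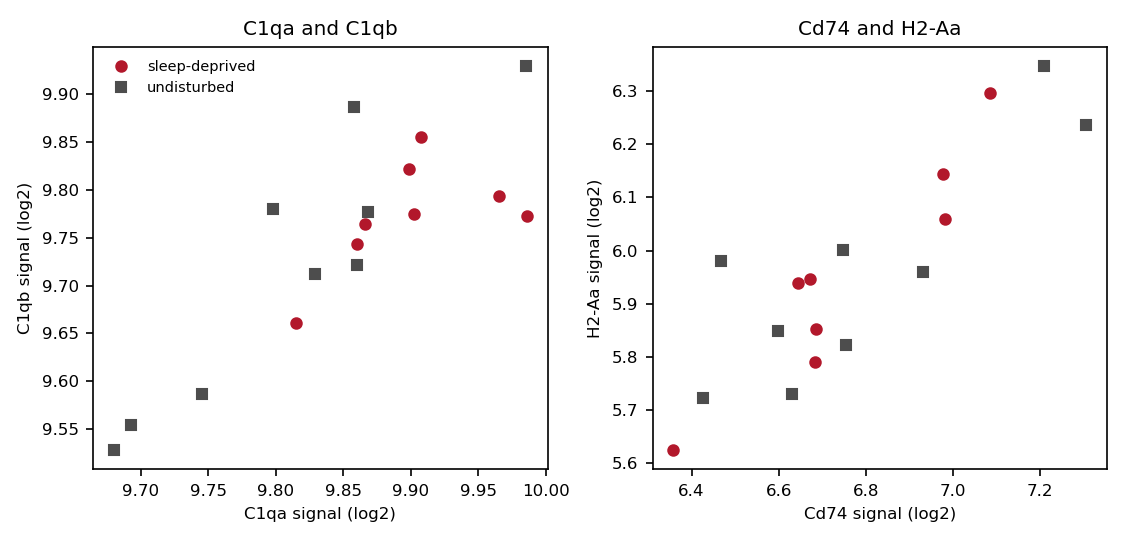
Signals (log2 on both axes) of C1qb against C1qa and of H2-Aa against Cd74, 1 point per animal, sleep-deprived as red circles and undisturbed as grey squares. Both pairs rise together, and the 2 groups occupy overlapping ranges.

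Further genes of the same pathways were read from 6 wider lists, of which 166 of 182 genes were measured. There 4 rose and 2 fell, or 3.61% against 3.97% of all genes. Of 27 further microglial genes Crybb1, a crystallin gene with high expression in microglia, rose. Crybb1 ranged from 7.33 to 7.73 with a median of 7.53 in sleep-deprived animals, against 7.09 to 7.44 with a median of 7.25 in undisturbed animals. Its log2 difference was 0.28 (SE 0.056, limma adjusted p = 0.0070), with 7 sleep-deprived animals above every undisturbed one.

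Of 21 further complement genes Cfp rose, which encodes properdin, the stabiliser of the alternative pathway (0.36, SE 0.098, limma adjusted p = 0.042). Its call was lost under 3 of 11 alternatives, at adjusted p = 0.052 with the most variable probe set, 0.053 with the RNA quality covariate and 0.16 in the exact rank-sum test. It was also lost in 11 of the 17 fits that left out 1 array (limma adjusted p up to 0.088). Of 29 further phagocytosis genes 2 fell. Lpl, which encodes lipoprotein lipase, averaged 10.3 ± 0.083 (SD, n = 8) in sleep-deprived and 10.5 ± 0.072 (SD, n = 9) in undisturbed animals, and every sleep-deprived value was below every undisturbed one (-0.25, SE 0.043, limma adjusted p = 0.0019). Itgav, the integrin chain that reads Mfge8, was at -0.19 (SE 0.042, limma adjusted p = 0.013), and lost its call with the mean of its 5 probe sets (-0.018, limma adjusted p = 0.82) and with the most variable one (-0.17, limma adjusted p = 0.41).

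Of 38 further sensing and signalling genes Nfkbia, the inhibitor that NF-kB induces against itself, rose (0.28, SE 0.072, limma adjusted p = 0.032). Its call was lost at adjusted p = 0.073 with the most variable probe set, 0.054 with the choroid plexus covariate and 0.11 in the exact rank-sum test, and in 8 of the 17 fits that left out 1 array. Of 24 MHC and interferon genes Irf3, a transcription factor gene of antiviral sensing, rose (0.18, SE 0.043, limma adjusted p = 0.023), and lost its call with the mean of its 4 probe sets (0.13, limma adjusted p = 0.11), with the most variable one (0.23, limma adjusted p = 0.15) and with the choroid plexus covariate (0.17, limma adjusted p = 0.058). None of 27 further cytokine and chemokine genes passed in limma, 3 had an unadjusted p under 0.05, and 16 of the 27 were near background.

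Other cells of the dissection were read from 9 marker lists. None of 8 border macrophage, 7 blood myeloid, 7 lymphocyte and 3 red cell genes passed, and 5, 5, 4 and 2 of them were near background. The border macrophage genes summed, on the linear scale, to 307 to 424 in sleep-deprived and 279 to 458 in undisturbed animals. All 7 blood myeloid and all 7 lymphocyte differences were positive, with medians of 0.091 each, and all 8 neuronal ones were negative, with a median of -0.075. The neuronal genes all lay above background. Over all genes 9248 of 18193 differences were positive, and above background 5275 of 12722, so positive signs were more frequent near background. The 2 blood myeloid and 3 lymphocyte genes above background were positive too. Whether signal level enters the signs of these lists was not tested. Choroid plexus genes varied most between dissections: the summed signal of 9 genes, on the linear scale, ran from 669 to 20914 in sleep-deprived and from 797 to 18275 in undisturbed animals, all 9 differences were positive and none passed. With the mean of these markers as a covariate Gpr34 was at -0.30 (limma adjusted p = 0.031) and Mertk at 0.29 (limma adjusted p = 0.021). None of 8 astrocyte and 8 neuronal genes passed, while 1 of 7 oligodendrocyte and 2 of 7 endothelial genes fell. The list means of these types, on the log2 scale, ran from 11.25 to 11.50 in sleep-deprived and from 11.35 to 11.44 in undisturbed animals for astrocytes. Oligodendrocyte means ran from 11.1 to 11.4 in sleep-deprived and from 11.2 to 11.5 in undisturbed animals. For endothelial genes they ran from 8.01 to 8.17 in sleep-deprived and from 8.00 to 8.35 in undisturbed animals. What part these cell types have in the calls of Gpr34 and Mertk was not tested.

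Promoters are shown because PU.1, the product of Spi1, binds regulatory DNA of many microglial genes, and because Mertk is the called gene with a sequence at hand. The 250 bases before the start of transcription were taken from RefSeq (GRCm38.p6) for the 28 of 41 genes with an entry, and 27025 genes of all kinds were searched likewise on both strands. The PU.1 core GAGGAAG, or its reverse complement CTTCCTC, was present for 9 of the 28 genes (32.1%) and for 12% of all genes. The genes were Axl, C1qc, Cx3cl1, Fcrls, Itgam, Laptm5, P2ry13, Tnf and Trem2, of which 3 of 9 were identity genes and 4 of 9 complement and phagocytosis genes. The STAT element TTCNNNGAA was present for 4 of 28 (8.13% of all genes), the interferon-stimulated response element for 4 of 28 (3.46% of all genes) and the NF-kB element for Il6 alone (1.65% of all genes). Socs3 was among the genes with the STAT element and Cxcl10 among those with the interferon element. A match describes letters, not binding. The windows below are printed 5′ to 3′ on the gene's strand with the PU.1 core, where present, in capitals: P2ry13 (chr3:59210883-59211132, minus strand), Itgam (chr7:128062390-128062639, plus strand), Trem2 (chr17:48346151-48346400, plus strand) and Mertk (chr2:128698665-128698914, plus strand). The core ended 42, 78 and 35 bases before the start of transcription in the first 3, and it was not found in the window of Mertk.
P2ry13: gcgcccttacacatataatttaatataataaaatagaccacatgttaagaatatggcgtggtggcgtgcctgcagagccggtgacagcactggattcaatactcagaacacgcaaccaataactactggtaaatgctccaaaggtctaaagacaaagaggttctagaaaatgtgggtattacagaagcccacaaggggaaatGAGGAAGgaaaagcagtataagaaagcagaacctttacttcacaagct
Itgam: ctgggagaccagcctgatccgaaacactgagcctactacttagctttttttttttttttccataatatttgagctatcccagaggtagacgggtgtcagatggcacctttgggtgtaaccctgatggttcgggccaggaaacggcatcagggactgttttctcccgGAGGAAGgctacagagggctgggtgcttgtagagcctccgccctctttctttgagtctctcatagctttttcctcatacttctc
Trem2: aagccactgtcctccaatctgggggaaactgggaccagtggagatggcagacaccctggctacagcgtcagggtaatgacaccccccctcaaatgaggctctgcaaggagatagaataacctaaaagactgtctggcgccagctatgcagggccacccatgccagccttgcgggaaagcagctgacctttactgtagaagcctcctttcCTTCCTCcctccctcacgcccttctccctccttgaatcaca
Mertk: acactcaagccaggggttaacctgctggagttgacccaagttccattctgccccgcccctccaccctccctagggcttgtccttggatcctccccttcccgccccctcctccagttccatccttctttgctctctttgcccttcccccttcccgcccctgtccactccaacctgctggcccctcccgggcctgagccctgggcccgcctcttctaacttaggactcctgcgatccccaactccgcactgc

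Probe sets of 1 gene were compared for the 13 members with more than 1. In 7 of the 13 at least 1 other probe set had the opposite sign to the brightest, and 15 of the 26 other probe sets were near background. None of the 26 differed from its gene's brightest probe set (limma, adjusted over 16752 such pairs), where 1.3% of all pairs did. Laptm5, with 5 probe sets, had the widest disagreement: the second brightest was at -0.27 (adjusted p over all probe sets = 0.098) and a dimmer one at 0.27 (adjusted p over all probe sets = 0.38), on either side of the brightest at -0.038. At the level of single probe sets those of Gpr34 and Mertk passed (adjusted p over all probe sets = 0.031 and 0.026), against 1.81% of all 45037, and each of the 2 genes rests on a single probe set.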

How the data were processed

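The 17 arrays (8 sleep-deprived, 9 undisturbed animals) were read from the deposited table of log2 signals, 1 value per probe set and array. RMA and the affy package are named in the submitters' processing notes, without versions or filters. That the base is 2 was judged from the values (2.90 to 14.6). RMA brings the arrays to nearly the same distribution, which hides much of any shift common to the bulk of genes and shrinks differences at low signal. Arrays have no sequencing depth; their number limits the precision. Array medians lay between 6.13 and 6.22, and the highest correlation between arrays was 0.998, so no pair of arrays was identical.

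The 64 control probe sets among 45101 were left out. By the platform annotation, which can be old, 34945 of the rest had 1 symbol, 932 several and 9160 none. Groups came from the sample titles, which number the animals as biological replicates. Group means were fitted in limma 3.58.1 (lmFit, eBayes; R 4.3.3), with Benjamini-Hochberg adjustment over all 18193 genes, all probe sets or all probe set pairs, and a threshold of 0.05; the fit was tested on simulated data. Relations between genes used 100000 permutations, or all orders within a group (Python 3.11.15, numpy 2.4.6, scipy 1.17.1), two-sided, adjusted over 6 relations.

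The members, their roles and all lists were chosen with earlier results of these data known. Ranges over animals are given for called genes and for the 3 largest absolute differences of each role; of the wider lists the called genes are named. Tmem119, C1qa, C1qb and Laptm5 were singled out after their values were seen. The C1q and class II pairs were chosen as chains of 1 complex.

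Alternatives were a filter at a mean signal of 6, quantile normalization, cyclic loess, the mean of all or the most variable probe set, array weights, eBayes with its trend and robust settings, a replicate block, covariates for choroid plexus markers and RNA quality (3' minus 5' control signals), an exact rank-sum test and each array left out.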

Additional observations from a re-analysis of the deposited data

Results flagged for a closer look

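In 6 of 94 groups tested (47 genes in 2 groups) 1 animal stood far from the other animals of its group, by Dixon's gap criterion, where chance gives about 5%. Among sleep-deprived animals Siglech was at 7.35 in replicate 2 (next lowest 7.61), Axl at 8.45 in the same animal (next lowest 8.61), Laptm5 at 7.87 in replicate 5 (next lowest 8.17), Tlr4 at 6.03 in the same animal (next highest 5.90), and Myd88 at 6.00 in replicate 4 (next lowest 6.38). Among undisturbed animals Cxcl10 was at 6.21 in replicate 3 (next highest 5.71). Replicate 5 is the sleep-deprived array that stood apart in RNA quality (3′ minus 5′ control signal 0.42, against 0.20 to 0.30 on the others), and without it Laptm5 was at 0.014 and Tlr4 at 0.027. None of these genes passed the test between the groups, and none passed in any fit that left out 1 array.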

How the results depend on the processing

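Mertk passed under all 11 alternatives that kept every array (limma or rank-sum adjusted p = 0.0033 to 0.021) and in all 17 fits without 1 array (up to 0.034). Gpr34 passed under 10 of the 11 and in all 17 (up to 0.039), and missed the threshold in the exact rank-sum test (0.061). Stat3 passed in that test, so the 2 members it called were Mertk and Stat3, both higher. The count of the 41 genes called was 2, and 4 after cyclic loess, where C1qc and Stat3 joined (3 with a mean signal of at least 6, quantile normalization or array weights, each time with Stat3); it ran from 2 to 3 without 1 array, Tlr7 passing without sleep-deprived replicate 1 or undisturbed replicate 7 (adjusted p = 0.039 and 0.038) and Stat3 without sleep-deprived replicate 5 (0.041). Neither called difference among the 41 changed sign. Uncalled ones did in 8 genes under an alternative that kept every array (Ctss, Tyrobp, Axl, Il6, C1qb, Laptm5, Cd74 and Tlr2) and in 7 without 1 array (Aif1, Axl, Cd74, Ctss, Cxcl10, Fcrls and Laptm5), 11 genes in all. Over all genes 723 were called (227 higher, 496 lower), 726 after quantile normalization (336 higher, 390 lower) and 773 after cyclic loess (341 higher, 432 lower); neither moved the median by more than 0.0031. With the choroid plexus covariate 433 genes, 479 probe sets (816 without it) and 99 probe set pairs (217 without it) were called. A filter at 6 called 1332 probe sets among fewer tested, and the rank-sum test 120 pairs. The cause of these shifts was not tested. Without 1 array the counts ran from 481 (without undisturbed replicate 4) to 817 genes, 563 to 889 probe sets and 122 to 248 pairs. Pairs fell under 217 by over 1.5 times without sleep-deprived replicate 3 or 5 (133 and 122) and without undisturbed replicate 4, 6 or 8 (139, 132 and 122). The labels do not say that replicate numbers pair the animals. Same-numbered deviations correlated at -0.068 to 0.39, over 0.1 in 4 of 8 pairs, and 2 of 16 animals correlated best with their own number. These values had no reference to be judged against, so they do not settle whether animals were paired. With the replicate block 913 genes, 959 probe sets, 225 pairs and the same count of 2 among the 41 were called. Signal over background limits the 6 genes near it.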
